A study of Mus musculus with 48 samples.

Results

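Hippocampal RNA of prenatally stressed (PS) female mice was compared between the genotype labels 5-Htt+/- and 5-Htt+/+. The samples with a PS label numbered 33 of the 48 in the series, 17 labelled 5-Htt+/- and 16 labelled 5-Htt+/+, and they were chosen by their labels alone. All were C57BL/6 females aged 3 months whose dams had been restrained 3 times daily between embryonic days 13 and 17. The study sorted the PS offspring by social behaviour into socially affected (SA, labelled PS-susceptible) and socially unaffected (SU, labelled PS-resilient), which gave 8 SA and 9 SU libraries labelled 5-Htt+/- and 8 SA and 8 SU libraries labelled 5-Htt+/+. The 15 control offspring, 7 labelled 5-Htt+/- and 8 labelled 5-Htt+/+, came from dams without stress and were used as a separate set for the same genotype comparison. 5-Htt is another name for Slc6a4, and 5-Htt+/- offspring carry 1 targeted allele of this gene, taken from a strain made on a 129 background and bred to C57BL/6 through wild-type dams and heterozygous males. The allele is present in every cell from conception, and litter is not given in the labels used here, so that littermates could not be told apart and p-values measure the spread between these libraries.

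Slc6a4 encodes the serotonin transporter, which takes released serotonin back into the axon terminal. Its transcript is made mainly in the serotonin neurons of the raphe nuclei, whose axons reach the hippocampus, and adult hippocampal cells are not known as a main source of it. The transporter thus sets how long serotonin acts on the receptors of hippocampal neurons, and the question of the comparison was which hippocampal transcripts differ with the genotype label after prenatal stress.

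Total counts per library were between 16488405 and 38213754 in the PS 5-Htt+/- libraries and between 16547182 and 34810835 in the PS 5-Htt+/+ libraries. Markers of hippocampal neurons were found in all 33 libraries, with Prox1 of granule cells between 73.0 and 132 CPM (counts relative to library size, with upper quartile factors over the 48 libraries) and Camk2a of excitatory neurons between 2350 and 3350 CPM. The raphe markers Tph2 and Fev had medians of 1.29 and 0.033 CPM. Ttr, the defining transcript of the choroid plexus, varied between libraries of both labels, from 5.64 to 772 CPM in 5-Htt+/- and from 4.93 to 788 CPM in 5-Htt+/+. A library without a read of a gene allows a level of up to 3 counts, or 0.081 to 0.186 CPM in these libraries, which covers counting error only.

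In PS offspring 8 transcripts differed between the genotype labels. Genotype was fitted with SA or SU as a second term, and the 30429 genes that reached 5 reads in 3 or more of the 33 libraries were tested with edgeR's quasi-likelihood test. At an adjusted p under 0.05, 8 genes (0.0263% of those tested) were called, 7 of them higher and 1 lower in 5-Htt+/-. Of these, 6 were on chromosome 11 within 6 Mb of the start of Slc6a4. The genes called were Slc6a4, Trpv1, Gm12343, Xaf1, Shpk and Nlrp1a on chromosome 11, 1700128E19Rik on chromosome 8 and Gm37260 on chromosome 9. An unadjusted p under 0.05 was reached by 1143 genes (3.76%), fewer than the 1521 that a uniform spread of p-values would give. The CPM ranges of the 17 and the 16 libraries did not overlap for 1 gene of 30429 (0.00329%), which was Slc6a4.

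Windows of 250 bases before the RefSeq start (GRCm38.p6) are shown for the 4 protein-coding genes called on the plus strand of chromosome 11. They lie at chr11:76998347-76998596 for Slc6a4, chr11:73233899-73234148 for Trpv1, chr11:73199232-73199481 for Shpk and chr11:72301379-72301628 for Xaf1, all on the plus strand. Capitals mark CCAAT and GGGCGG boxes on either strand.
Slc6a4: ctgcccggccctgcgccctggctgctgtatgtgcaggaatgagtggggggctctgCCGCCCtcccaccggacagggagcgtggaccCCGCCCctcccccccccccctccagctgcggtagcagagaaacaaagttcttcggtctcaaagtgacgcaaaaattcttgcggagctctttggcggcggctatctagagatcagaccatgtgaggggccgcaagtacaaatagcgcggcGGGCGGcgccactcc
Trpv1: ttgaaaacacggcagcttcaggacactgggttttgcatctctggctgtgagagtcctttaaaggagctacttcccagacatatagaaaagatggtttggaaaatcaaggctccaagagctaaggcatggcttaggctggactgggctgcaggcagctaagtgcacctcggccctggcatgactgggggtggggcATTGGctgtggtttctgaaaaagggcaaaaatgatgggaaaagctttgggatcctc
Shpk: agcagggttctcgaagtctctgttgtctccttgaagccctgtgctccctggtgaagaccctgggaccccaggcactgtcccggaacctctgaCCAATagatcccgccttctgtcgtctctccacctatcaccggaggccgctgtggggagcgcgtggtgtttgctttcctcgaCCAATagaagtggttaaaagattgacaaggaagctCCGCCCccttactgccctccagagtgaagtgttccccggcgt
Xaf1: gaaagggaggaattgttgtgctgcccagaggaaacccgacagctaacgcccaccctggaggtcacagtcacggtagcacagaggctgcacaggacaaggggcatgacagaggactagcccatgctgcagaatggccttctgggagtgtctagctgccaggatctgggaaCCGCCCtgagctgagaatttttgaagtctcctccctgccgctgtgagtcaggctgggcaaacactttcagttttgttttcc
Of 32851 RefSeq windows of the same length, 33.8% held CCAAT, 32.7% held GGGCGG and 12.4% held TATAAA, which was searched as well. The Slc6a4 window held 3 GGGCGG boxes and the Xaf1 window 1. The Trpv1 window held 1 CCAAT box, and the Shpk window held 2 CCAAT boxes and 1 GGGCGG box. TATAAA was found in none of these 4 windows. The window of Nlrp1a, a protein-coding gene called on the minus strand, is not shown and held none of these motifs. The windows of Gm12343, also on the minus strand and not shown, held TATAAA only. A match is a description of letters only.

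**Figure D1:**
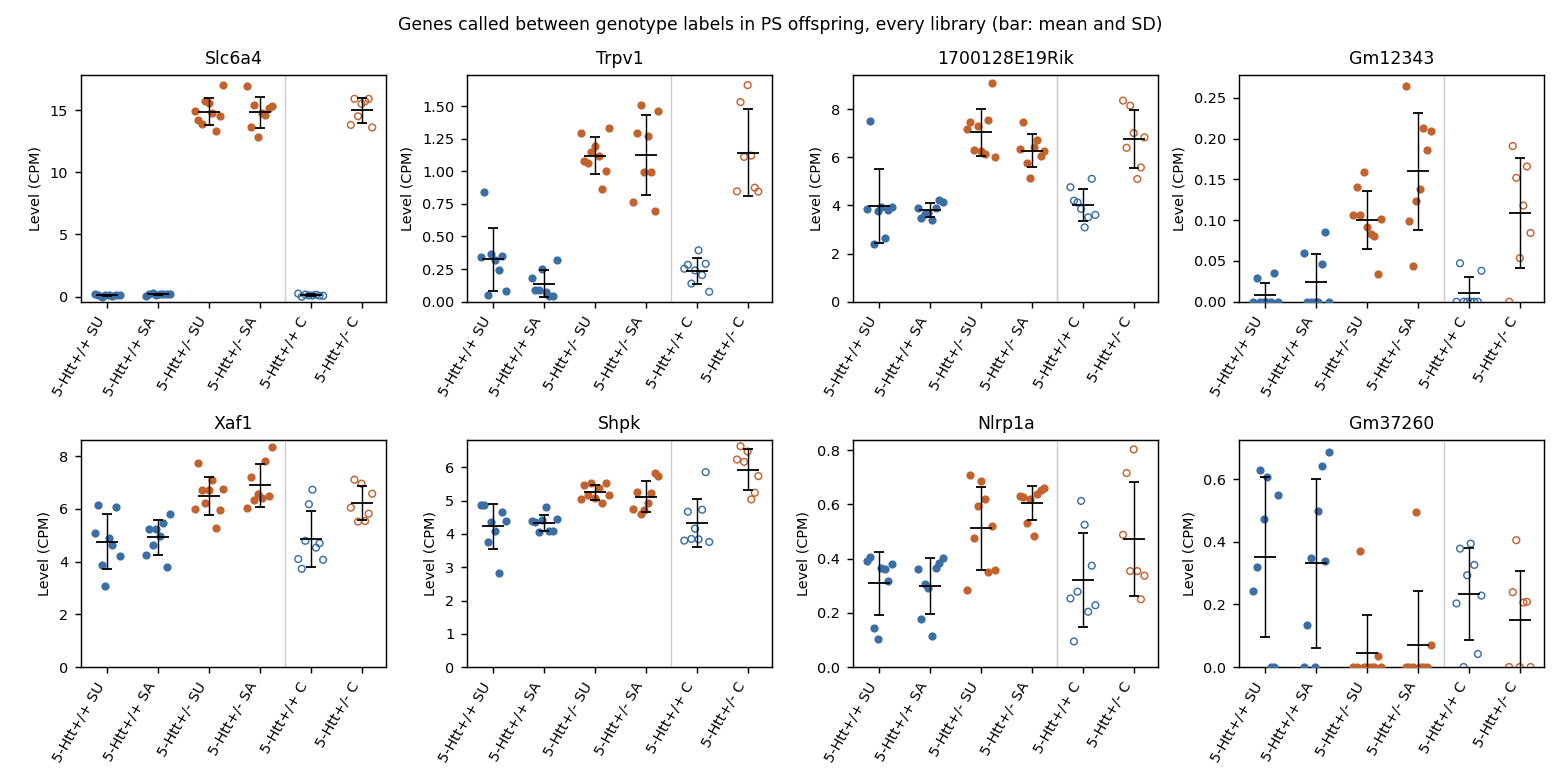
Level in CPM (y axis, linear) of the 8 called genes in each of the 48 libraries, by genotype label and group (x axis; filled points PS, open points controls, C), with mean and SD as bars. Slc6a4 lies between 12.8 and 17.0 CPM in the PS 5-Htt+/- libraries and at most at 0.261 CPM in the PS 5-Htt+/+ libraries, and a single 5-Htt+/+ SU library stands at 0.839 CPM for Trpv1 and 7.52 CPM for 1700128E19Rik.

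Slc6a4 (ENSMUSG00000020838.12, chr11:76998603-77032340, plus strand, GRCm38) went against the direction that the name of the allele would give, so that groups are called here by their labels. Whether the genotype labels are coded the other way cannot be told from the counts, and every direction given here would then turn around. Its level in the PS libraries labelled 5-Htt+/- had a lowest value of 12.8, a median of 14.8 and a highest value of 17.0 CPM, against 0, 0.147 and 0.261 CPM in those labelled 5-Htt+/+. All 17 libraries of the first label were above all 16 of the second. The log2 fold change was 6.57 (standard error 0.18), or 95.1-fold, with an adjusted p of 3.36e-37 from edgeR's quasi-likelihood test. Within SA offspring the log2 fold change was 6.24 (standard error 0.22) and within SU offspring 6.99 (standard error 0.28). The difference between both had an unadjusted p of 0.0315 and an adjusted p of 0.973 from edgeR. The counts are sums over the whole gene and do not show which part of it the reads came from.

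Gm12343 is an antisense transcript of the Slc6a4 locus (ENSMUSG00000087398.1, chr11:77008914-77009873, minus strand). All 960 of its bases lie inside Slc6a4, and 58 of them are exonic in Slc6a4. The sources used here do not give the strand setting of the counting, and reads of Gm12343 and of Slc6a4 cannot be told apart. It had 1 to 8 reads in each of the 17 PS 5-Htt+/- libraries (median 0.107 CPM) and 0 to 2 reads in the 5-Htt+/+ libraries, 11 of which had none. The log2 fold change was 2.67 (standard error 0.60, adjusted p = 0.000233 by edgeR). Only replicates 1, 6 and 8 of the 5-Htt+/- SA group, with 8, 6 and 6 reads, reached the 5 reads of the filter. Gm12343 was thus tested only through the label in which it was higher, and its call cannot be taken as separate from that of Slc6a4.

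Trpv1, the capsaicin receptor, a heat-gated cation channel of sensory neurons, separated all but 1 of the 5-Htt+/+ libraries from the other label. Its gene (ENSMUSG00000005952.15, chr11:73234292-73261242, plus strand) starts 3.76 Mb before that of Slc6a4, and no other annotated gene overlaps it. In the PS libraries labelled 5-Htt+/- the lowest, median and highest levels were 0.699, 1.12 and 1.51 CPM, and in those labelled 5-Htt+/+ 0.0425, 0.21 and 0.839 CPM. The ranges overlapped through 1 library of the 5-Htt+/+ SU group, since the next highest 5-Htt+/+ library was at 0.367 CPM. Trpv1 was higher in 5-Htt+/- by a log2 fold change of 2.14 (standard error 0.25), or 4.40-fold, with an adjusted p of 1.39e-07 from edgeR. It passed the test in SA offspring (3.00, standard error 0.42, adjusted p = 7.31e-07 by edgeR) and in SU offspring (1.61, standard error 0.28, adjusted p = 0.00397 by edgeR). These estimates differed by 1.39 (standard error 0.50), with an unadjusted p of 0.00555 and an adjusted p of 0.973 from edgeR. The mean level of Trpv1 was 1.12 CPM in both 5-Htt+/- groups, and it was 0.137 ± 0.103 in SA and 0.324 ± 0.241 in SU libraries labelled 5-Htt+/+ (SD, n = 8 each). The SU mean includes the library at 0.839 CPM, and the medians of these groups were 0.088 and 0.332 CPM. The difference between SA and SU was not tested without this library.

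The neighbours of Trpv1 did not move together. Shpk, sedoheptulokinase (ENSMUSG00000005951.13, chr11:73199460-73224511), which lies just before Trpv1, had a lowest, median and highest level of 4.60, 5.18 and 5.82 CPM in PS 5-Htt+/- and of 2.82, 4.37 and 4.88 CPM in PS 5-Htt+/+ libraries. The ranges overlapped, and 14 of the 17 libraries labelled 5-Htt+/- were above every library labelled 5-Htt+/+. Shpk was higher by 0.27 on the log2 scale (standard error 0.05, adjusted p = 0.0252 by edgeR), and this call was lost under 5 of the 15 alternative settings and in 9 of the 33 fits that left out 1 library. Ctns, the lysosomal cystine transporter, starts close to the start of Shpk on the opposite strand, and its log2 fold change was -0.17 (standard error 0.04, adjusted p = 0.305 by edgeR). Its level was 14.5 ± 1.04 CPM in 5-Htt+/- (SD, n = 17) and 16.3 ± 1.22 CPM in 5-Htt+/+ (SD, n = 16). Trpv3, a related channel gene on the other side of Trpv1, had a log2 fold change of -0.05 (95% interval -0.22 to 0.12). Ctns and Trpv3 are named after their values were seen.

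Xaf1, an interferon-inducible antagonist of apoptosis inhibitors (ENSMUSG00000040483.15, chr11:72301629-72313733), starts 4.70 Mb before Slc6a4. Its lowest, median and highest levels were 5.27, 6.56 and 8.36 CPM in PS 5-Htt+/- libraries, against 3.09, 4.94 and 6.16 CPM in PS 5-Htt+/+ libraries. Of the 17 libraries labelled 5-Htt+/-, 13 lay above the whole range of the other label. It rose by 0.45 on the log2 scale (standard error 0.08, adjusted p = 0.00226 by edgeR). The other interferon-induced genes did not rise with it: of 17 listed genes, which do not include Xaf1, 16 had a log2 fold change below 0 and none was called.

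Nlrp1a, a sensor protein of the inflammasome, rose as well, and its neighbouring copies had estimates of the opposite sign. Nlrp1a (ENSMUSG00000069830.10, chr11:71092236-71144704, minus strand) starts 5.91 Mb before Slc6a4. Its lowest, median and highest levels were 0.286, 0.619 and 0.707 CPM in PS 5-Htt+/- and 0.105, 0.36 and 0.405 CPM in PS 5-Htt+/+ libraries, and 14 of the former lay above all of the latter. The log2 fold change was 0.83 (standard error 0.16, adjusted p = 0.0252 by edgeR), and the call was lost under 3 of the 15 alternative settings and in 11 of the 33 fits that left out 1 library. The log2 fold change of Nlrp1b was -0.56 (standard error 0.14) and that of the pseudogene Nlrp1c-ps -0.74 (standard error 0.18), each with an adjusted p of 0.33 from edgeR. The levels of Nlrp1b were 0.586 ± 0.162 CPM in 5-Htt+/- (SD, n = 17) and 0.864 ± 0.196 CPM in 5-Htt+/+ (SD, n = 16). The 3 are close copies, and counting may split their reads, so that the values of each are uncertain. Nlrp1b and Nlrp1c-ps are named after their values were seen.

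Differences along chromosome 11 were concentrated on the side of Slc6a4 that holds these genes. Within 5 Mb of the Slc6a4 start 232 other genes were tested. Of these, 4 (1.72%) were called and 29 (12.5%) had an unadjusted p under 0.05. The 4 include Gm12343, whose reads cannot be told apart from those of Slc6a4. Between 5 and 10 Mb, 1 of 290 (0.345%) was called and 6.90% had an unadjusted p under 0.05, against 5.05% between 10 and 20 Mb, 4.50% between 20 and 40 Mb and 2.62% farther away. In the 6 Mb before Slc6a4, 29 of 123 genes (23.6%) had an unadjusted p under 0.05, 17 higher and 12 lower in 5-Htt+/-, and without a filter on low counts the share was 14.3%. In the 6 Mb after it, 6 of 136 (4.41%) did. The width of 6 Mb was chosen after the values were seen. Over whole chromosomes the share was 5.34% on chromosome 11 and between 3.17% and 4.23% on the other autosomes.

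**Figure D2:**
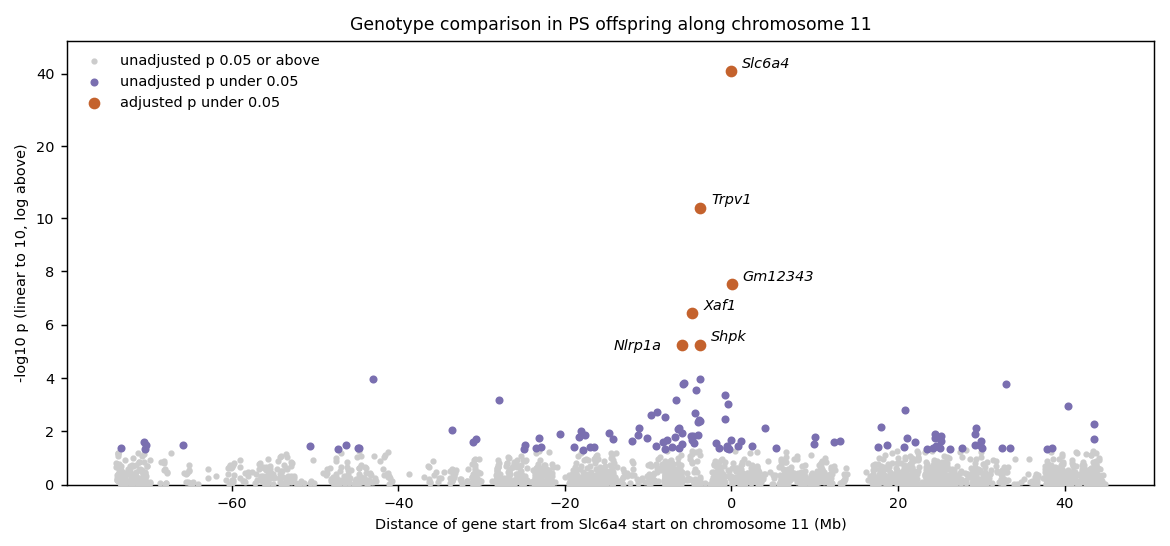
Unadjusted p of the genotype comparison in the 33 PS libraries (y axis, -log10, linear to 10 and logarithmic above) against the distance of each gene's start from that of Slc6a4 on chromosome 11 (x axis, Mb). Points are the tested genes of the chromosome, coloured by whether they passed an unadjusted or an adjusted p of 0.05, and the 6 called genes lie between -5.91 and 0.01 Mb.

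The gene directly before Slc6a4 had a small estimate. Blmh, the bleomycin hydrolase gene that ends just before Slc6a4, had an estimate of 0.07 on the log2 scale (standard error 0.03), with an unadjusted p of 0.0212 and an adjusted p of 1 from edgeR. Cyb5d2, P2rx1 and P2rx5 farther along the window had log2 fold changes of 0.15, 0.57 and -0.38, with unadjusted p-values of 0.000293, 0.00446 and 0.00429 in the edgeR fit, and none passed the adjusted test. P2rx1 and P2rx5 encode ATP-gated ion channels. These genes are named after their values were seen.

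Both called genes elsewhere in the genome were not annotated as protein-coding. 1700128E19Rik is a long intergenic RNA (ENSMUSG00000031510.5, chr8:11713264-11722620, plus strand). Its lowest, median and highest levels were 5.14, 6.33 and 9.11 CPM in PS 5-Htt+/- libraries and 2.42, 3.83 and 7.52 CPM in PS 5-Htt+/+ libraries. Without the 5-Htt+/+ SU library at 7.52 CPM the highest 5-Htt+/+ value was 4.21 CPM, below all 17 libraries of the other label. The log2 fold change was 0.76 (standard error 0.10), or 1.69-fold, with an adjusted p of 8.62e-06 from edgeR, and it passed the test in SA (0.74, adjusted p = 0.0458) and SU offspring (0.77, adjusted p = 0.00723) alike. Among the 124 other genes tested within 5 Mb of it, 4 (3.23%) had an unadjusted p under 0.05 and none was called.

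Gm37260 on chromosome 9 (ENSMUSG00000102702.1, chr9:102273736-102274986) was the only called gene that was lower in 5-Htt+/-, and its counts were low. It had no read in 13 of 17 PS 5-Htt+/- libraries, and the other 4 had up to 8 reads (0.495 CPM). In PS 5-Htt+/+ libraries the median was 0.344 CPM, the highest value 17 reads (0.686 CPM), and 4 of 16 libraries had none. The ranges thus overlapped between 0 and 0.495 CPM. The log2 fold change was -2.91 (standard error 0.78, adjusted p = 0.0295 by edgeR), and the call was lost with DESeq2, the likelihood ratio test, the earlier and the robust quasi-likelihood forms and the replicate block, and in 22 of the 33 fits that left out 1 library (adjusted p up to 0.0909 by edgeR). Gm37260 was not tested under the stricter filter of 10 reads in 8 libraries. All 1251 bases of Gm37260 lie on the opposite strand of Ephb1, and its reads cannot be told apart from those of Ephb1.

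A single library labelled 5-Htt+/+, replicate 2 of the SU group, lay within the range of the other label and apart from its own for Trpv1 and 1700128E19Rik. For the other called genes it was not apart from its own label. It was the highest PS 5-Htt+/+ library for Xaf1, at 6.16 CPM with the next at 6.06 CPM. The same held for Nlrp1a, at 0.405 CPM with the next at 0.403 CPM. For Shpk it was at 4.86 CPM, below a single other 5-Htt+/+ library at 4.88 CPM. Of the 17 PS 5-Htt+/- libraries, 4 were below it for Xaf1, 3 for Nlrp1a and 3 for Shpk. It thus lay within the range of the other label for these genes as well. For 1700128E19Rik 15 of the 17 PS 5-Htt+/- libraries were below it. For Slc6a4 it had 4 reads (0.116 CPM), within the range of its own label. It was singled out after its values were seen. Without it the log2 fold changes were 2.52 for Trpv1 and 0.87 for 1700128E19Rik, and the same 8 genes were called.

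The same comparison in control offspring, which shares no library with the PS comparison, gave 2 called genes of 29209 (0.00685%), Slc6a4 and Trpv1. Slc6a4 was higher in the 5-Htt+/- controls by 6.94 on the log2 scale (standard error 0.28, adjusted p = 3.29e-16 by edgeR) and Trpv1 by 2.23 (standard error 0.28, adjusted p = 0.000742 by edgeR). For 1700128E19Rik the log2 fold change was 0.76 (standard error 0.14) with an adjusted p of 0.0641 from edgeR, and its levels were 6.77 ± 1.21 CPM in 5-Htt+/- (SD, n = 7) and 4.03 ± 0.666 CPM in 5-Htt+/+ controls (SD, n = 8). Xaf1 (0.34), Shpk (0.46) and Nlrp1a (0.40) had estimates of the same sign as in PS offspring, with adjusted p-values of 0.868, 0.629 and 0.868 from edgeR, and Gm37260 had one of -0.67 (adjusted p = 0.868 by edgeR). Gm12343 had too few reads to be tested in the controls. In the 6 Mb before Slc6a4, an unadjusted p under 0.05 was found for 11 of 118 genes (9.32%), where the share was 4.58% over all genes tested in controls and 4.89% within 5 Mb on either side of Slc6a4. Of the 28 genes of this window with such a p in PS offspring that were also tested in controls, 25 had the same sign there. The share of same signs among genes outside the window is not given here.

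Neither test of a difference between genotype effects called a gene. The genotype effect in SA minus that in SU gave 0 calls of 30429, with 1504 genes (4.94%) at an unadjusted p under 0.05, and 0 calls with DESeq2. The effect in PS minus that in controls gave 0 calls of 31208, with 1876 genes (6.01%) at an unadjusted p under 0.05, and 0 calls with DESeq2. For the difference between PS and control offspring the adjusted p-values of the 8 genes were between 0.811 and 0.997 in the edgeR fit. A missed threshold does not show that the effects were alike. The 95% interval of this difference was -0.71 to 0.89 on the log2 scale for Trpv1 and -0.35 to 0.36 for 1700128E19Rik. Of the 8 genes only Gm37260 had an interval that left out 0, from -4.425 to -0.067 (unadjusted p = 0.0314 by edgeR). Within SA offspring 3 genes (0.00986%) and within SU offspring 3 genes (0.00986%) were called, in both cases Slc6a4, Trpv1 and 1700128E19Rik, and an unadjusted p under 0.05 was reached by 3.84% of the genes in SA and 4.72% in SU offspring.

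**Figure D3:**
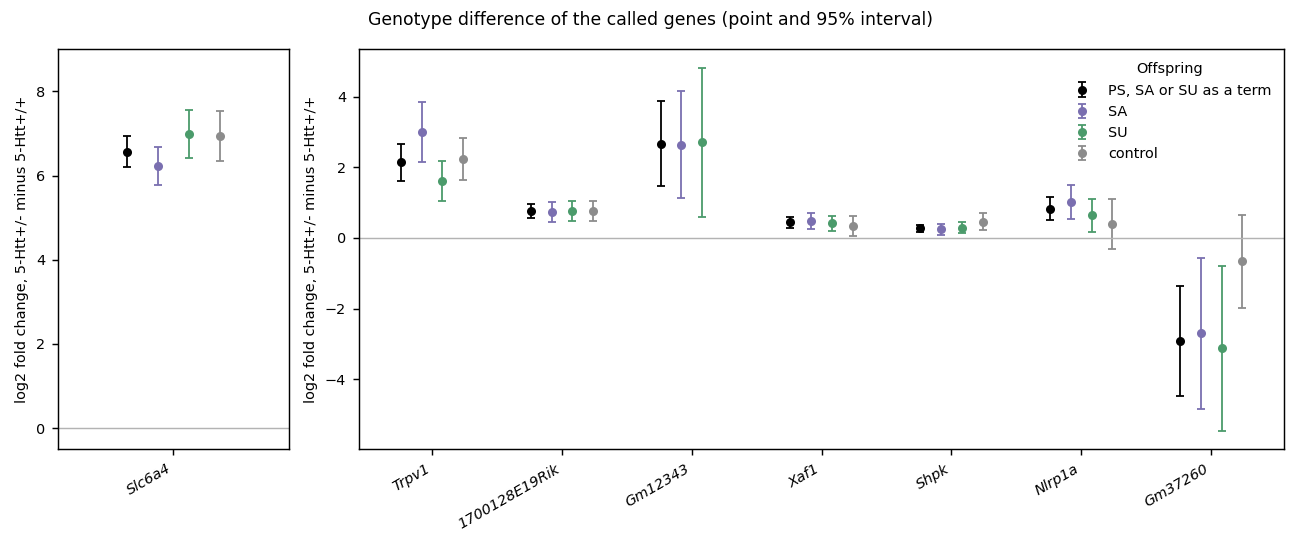
Log2 fold change between the genotype labels (y axis, 5-Htt+/- minus 5-Htt+/+) of the 8 called genes (x axis) in all PS, SA, SU and control offspring, with 95% intervals as bars. Slc6a4 has its own panel, Trpv1 lies at 3.00 in SA and 1.61 in SU offspring, and Gm12343 was not tested in controls.

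Apart from Slc6a4, no gene of the serotonin system was called. Of 20 listed genes for serotonin synthesis, storage, uptake and breakdown 19 were tested, and Slc6a4 was the only one with an unadjusted p under 0.05. The median log2 fold change of the 19 was -0.01, against 0.00 over all genes tested. Tph2, the rate-limiting enzyme of serotonin synthesis in the brain, had a log2 fold change of 0.01 (95% interval -0.22 to 0.23) and Slc18a2, the vesicular monoamine transporter, one of 0.10 (-0.08 to 0.29). Ddc, the decarboxylase that completes serotonin synthesis, had one of -0.07 (-0.21 to 0.07), and Maoa, which breaks serotonin down, had 27.0 CPM in 5-Htt+/- and 27.2 CPM in 5-Htt+/+ libraries. Norepinephrine transporter Slc6a2 had at most 4 reads in a library and was not tested.

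All 14 listed serotonin receptor genes were tested, 7 had a log2 fold change above 0, and the median was 0.01. Htr7, a receptor coupled to cyclic AMP production, was the only one with an unadjusted p under 0.05, at 9.40 ± 1.49 CPM in 5-Htt+/- (SD, n = 17) and 8.47 ± 1.20 CPM in 5-Htt+/+ (SD, n = 16), with a log2 fold change of 0.14 and an adjusted p of 1 from edgeR. Htr1a, the main inhibitory serotonin receptor of hippocampal pyramidal cells, had a log2 fold change of 0.07 (95% interval -0.03 to 0.17). Of 7 tested genes of raphe and monoamine neuron identity none had an unadjusted p under 0.05.

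Genes of glucocorticoid and stress hormone signalling gave no call in PS offspring, and their estimates differed in sign between PS and control offspring for several members. All 25 were tested, none was called, and 2 had an unadjusted p under 0.05 in the higher and 1 in the lower direction. Zbtb16, a glucocorticoid-induced transcription factor, was at 59.8 ± 5.24 CPM in 5-Htt+/- and 55.6 ± 5.15 CPM in 5-Htt+/+ (log2 fold change 0.11), and Hsd11b1, which regenerates active glucocorticoid, had a log2 fold change of 0.10. Plin4, a lipid droplet protein, had one of -0.40 (95% interval -0.74 to -0.06), and all 3 had an adjusted p of 1 from edgeR. In controls 10 of the 25 genes had an unadjusted p under 0.05, all higher in 5-Htt+/-, against 4.58% of all genes tested there. For the genotype effect in PS minus that in controls 10 of the 25 had an unadjusted p under 0.05, all lower, against 6.01% of all genes, and none was called. The same control libraries enter this difference and the comparison in controls, so that these counts are not independent. The list was also drawn up with earlier results of these data known. Mitochondrial transcripts took 4.60 ± 0.679% of the reads of 5-Htt+/- controls (SD, n = 7) and 5.10 ± 0.499% of those of 5-Htt+/+ controls (SD, n = 8), against 5.19 ± 0.406% (SD, n = 17) in 5-Htt+/- and 5.15 ± 0.252% (SD, n = 16) in 5-Htt+/+ PS offspring, and the part of this share in these values was not tested.

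Sgk1, a kinase induced by glucocorticoids, had levels of 60.9 to 88.6 CPM (median 74.0) in the 7 control 5-Htt+/- libraries and of 51.0 to 71.1 CPM (median 54.2) in the 8 control 5-Htt+/+ libraries. In PS offspring it was between 41.8 and 62.0 CPM in 5-Htt+/- and between 42.8 and 62.8 CPM in 5-Htt+/+ libraries. The ranges overlapped in both sets. The genotype effect in PS minus that in controls was -0.42 on the log2 scale (unadjusted p = 0.00034, adjusted p = 0.461 by edgeR). Mt1, a metallothionein, had -0.44 (unadjusted p = 0.000333, adjusted p = 0.461 by edgeR) and Plin4 -1.15 (standard error 0.37, adjusted p = 0.72 by edgeR). Sgk1 and Mt1 are named after their values were seen.

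Oligodendrocyte and myelin genes had a similar pattern. All 19 were tested in PS offspring, the median log2 fold change was -0.03, and 1, the lineage factor Sox10 (-0.12, unadjusted p = 0.0372, adjusted p = 1 by edgeR), had an unadjusted p under 0.05. In controls the median was 0.18 and 7 had an unadjusted p under 0.05, all higher in 5-Htt+/-, against 4.58% of all genes tested there. For the difference between PS and control offspring 9 of the 19 had an unadjusted p under 0.05, all lower, against 6.01% of all genes, and none was called. Here too the counts share the control libraries and are not independent, and the list was drawn up with earlier results of these data known. The 5-Htt+/- controls in these comparisons are those with the mean mitochondrial share of 4.60%, against 5.10% in 5-Htt+/+ controls, and its part was not tested here either. Cldn11, a tight junction protein of myelin, was at 75.4 ± 18.6 CPM in 5-Htt+/- controls (SD, n = 7) and 56.9 ± 9.08 CPM in 5-Htt+/+ controls (SD, n = 8), and the PS means were 55.6 and 57.6 CPM. Cldn11 is named after its values were seen. In bulk tissue, fewer cells of a type and less RNA per cell cannot be told apart.

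Neuronal gene groups gave no call in PS offspring. None of 34 glutamate and GABA receptor subunits, 18 immediate early genes, 9 neurotrophins and receptors and 19 hippocampal subfield genes had an unadjusted p under 0.05, with medians of -0.01, -0.04, -0.03 and 0.01 on the log2 scale. Of 14 interneuron genes Reln, the extracellular matrix protein reelin, had the smallest p. It was between 56.2 and 74.7 CPM (median 65.8) in 5-Htt+/- and between 63.2 and 84.5 CPM (median 73.8) in 5-Htt+/+ libraries, with a log2 fold change of -0.13 (unadjusted p = 0.00116, adjusted p = 0.827 by edgeR). Of 13 adult neurogenesis genes Draxin, an axon guidance protein, had 0.30 and Neurod1, a neuronal differentiation factor, -0.14, and each had an adjusted p of 1 from edgeR. Of 16 circadian clock genes Arntl had an unadjusted p of 0.00203 with a log2 fold change of 0.11, and its adjusted p was 0.955 in the edgeR fit.

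The lists of glia, vessels and other tissue gave no call. The 15 astrocyte, 14 microglia, 13 endothelium and 12 thalamus genes had medians of 0.00, -0.02, 0.00 and 0.01 and no unadjusted p under 0.05. Of 23 tested motile cilia genes 19 were below 0, with a median of -0.08, and the axonemal dynein Dnah9 (-0.15) and the multiciliogenesis regulator Mcidas (0.47) each had an adjusted p of 1 from edgeR. In SA offspring 7 of the 23 had an unadjusted p under 0.05, all lower in 5-Htt+/- (median -0.21), against 3.84% of all genes, while in SU offspring 1 did, which was higher (median 0.08). For SA minus SU 5 of the 23 had such a p, all lower, against 4.94% of all genes, and none was called. The cilia list was drawn up with earlier results of these data known. Choroid plexus transcripts differed in the same direction between SA and SU offspring (medians of -0.64 and 0.68), and their part in the cilia values was not tested. Of the 17 interferon-induced genes, with a median of -0.08, Usp18 (-0.41) and Ifit3 (-0.25) had an unadjusted p under 0.05 and an adjusted p of 1. For comparison, 48.3% of all genes tested were above 0.

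Choroid plexus transcripts varied more within each label than between them. The median log2 fold change of the 18 genes was 0.05 in PS offspring, -0.64 in SA and 0.68 in SU offspring, and none was called. Their mean log2 CPM in a library was between -0.28 and 3.39 in 5-Htt+/- and between -0.39 and 3.44 in 5-Htt+/+ libraries. For Ttr the 95% interval of the log2 fold change was -1.46 to 1.91. With this score as a further term 8 genes were called, the same 8 as without it. The summed level of the 17 Snord116 genes, small nucleolar RNAs of an imprinted cluster, was between 0 and 44.0 CPM in 5-Htt+/- and between 0 and 48.9 CPM in 5-Htt+/+ libraries, and with this level as a further term the same 8 genes were called.

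**Figure D4:**
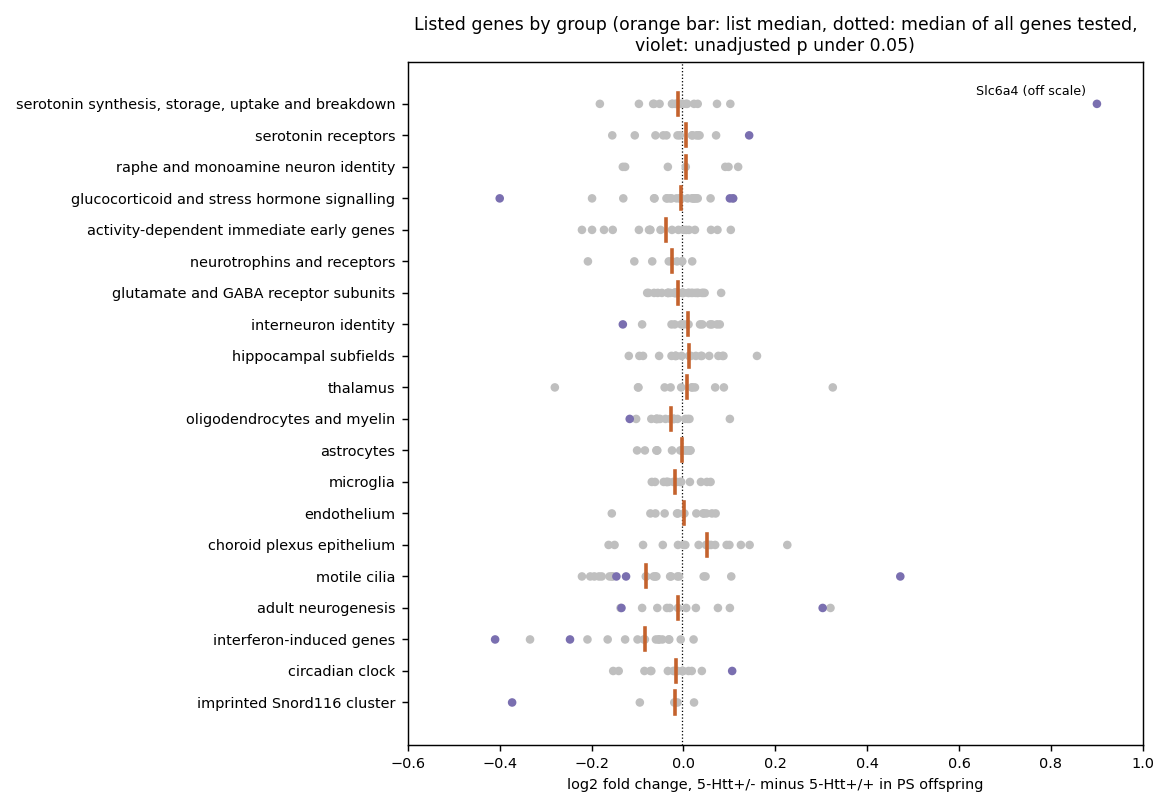
Log2 fold change between the genotype labels in PS offspring (x axis, 5-Htt+/- minus 5-Htt+/+) of each tested gene of the 20 lists (y axis), with the list median as an orange bar and an unadjusted p under 0.05 in violet. Slc6a4, at 6.57, is drawn at the right edge, and the list medians lie between -0.08 and 0.05.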

How the data were processed

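Hippocampal RNA was sequenced by the authors as single-end reads, and the deposited table holds whole-number read counts per gene for the 48 libraries. STAR and HTSeq, with DESeq2 and the build GRCm38.p5, are listed without versions in the processing notes of the submitters, while the paper's methods describe Salmon estimates, and the sources used here do not give the strand setting. Groups came from the labels. Counts of genes that reached 5 reads in 3 or more libraries of a fit were scaled by the upper quartile and tested with edgeR 4.0.16 (glmQLFit in its newer form, glmQLFTest, R 4.3.3) and Benjamini-Hochberg adjustment over all genes of the fit. Standard errors are Wald errors of the fitted model, and CPM values use scaling over all 48 libraries. The main fit used 33 PS libraries with SA or SU as a term, the controls had a fit of their own, and differences were contrasts of group means. Named genes were all called ones and up to 3 of each list with the smallest p, and others are marked in the text, besides the tissue and cell markers Prox1, Camk2a, Tph2, Fev and Ttr, the gene Maoa and the pituitary hormones Gh and Prl, which were also named after values were seen. Members, lists and window widths were chosen with earlier results of these data known. On simulated counts the test recovered most changed genes and called more unchanged genes than its threshold allows. This excess bears most on the calls nearest to the threshold (Shpk, Nlrp1a and Gm37260). The changed genes had more reads on average than Trpv1, Gm12343, Nlrp1a and Gm37260, and larger changes than Shpk and Xaf1. Recovery was thus not measured for genes like these. No 2 libraries of a group agreed within sampling noise. Alternatives were DESeq2 1.42.0, other edgeR forms, scalings, filters and terms, the replicate block, and leaving out each of the 33 libraries.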

Additional observations from a re-analysis of the deposited data

Results flagged for a closer look

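In groups of 8 or 9 libraries the gap between the highest library and the next was compared with the range of the group. Over 12 measures and the 4 PS groups, 6 of 48 gaps exceeded Dixon's 95% limit, and some gaps pass such a limit by chance. In the 5-Htt+/+ SU group replicate 2 was at 0.839 CPM for Trpv1, with the next library at 0.367, and at 7.52 CPM for 1700128E19Rik, with the next at 3.94. In the 5-Htt+/- SU group replicate 8 was at 9.11 CPM for 1700128E19Rik, with the next at 7.54. Gm37260 stood at 0.495 CPM in replicate 4 of the 5-Htt+/- SA group and at 0.37 CPM in replicate 3 of the 5-Htt+/- SU group, where the next libraries were at 0.0697 and 0.0346 CPM. Ttr was at 715 CPM in replicate 5 of the 5-Htt+/+ SU group, with the next library at 317 CPM. Causes were not tested.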

How the results depend on the processing

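In PS offspring 6 to 8 genes were called under the 15 alternatives, and Slc6a4, Trpv1, 1700128E19Rik and Xaf1 were called under each, as was Gm12343 under the 14 that tested it. Shpk lost its call under 5 of the 15, Gm37260 under 5 of the 14 that tested it and Nlrp1a under 3 of the 15. Their adjusted p-values were up to 0.101, 1 and 0.125 from the tool of each setting. With 1 library left out, 4 to 10 genes were called, and of these 33 fits 22 lost Gm37260, 11 Nlrp1a and 9 Shpk. The other 5 genes lost no call in the fits that tested them, which for Gm12343 were 30 of the 33. Without replicate 1, 6 or 8 of the 5-Htt+/- SA group Gm12343 did not reach the filter and was not among the calls. The count was 5 without replicate 2, 4 or 6 of the 5-Htt+/- SU, replicate 1 or 2 of the 5-Htt+/- SA or replicate 3 of the 5-Htt+/+ SU group, and 4 without replicate 6 or 8 of the 5-Htt+/- SA group. Within 10 Mb of Slc6a4 the 5 calls became 3 with all 48 libraries in the fit, with the replicate block and without the 3 libraries farthest on the first principal component, and 2 to 7 with 1 library left out. In the 6 Mb before Slc6a4 the share at an unadjusted p under 0.05 was 14.3% without a filter on low counts and 19.7% to 24.8% under the other 14 alternatives. In controls the 2 calls became 1 with the stricter filter, 4 with DESeq2 or without a filter, 11 with the likelihood ratio test and 8 with the replicate block. In SA offspring the likelihood ratio test called 5. The replicate block called 5 in SU offspring and 2 for PS minus control, Gh and Prl, and 0 for SA minus SU. Labels share replicate numbers only: same-numbered libraries of different groups had a median correlation of deviations of -0.00322, and 6 of 33 correlated best with their own number. In all 883 values of 59 listed genes under the 15 alternatives the sign was the main one and none was called. Apart from the filter on Gm12343, the cause of these changes was not tested. Transcripts of a few reads such as Gm12343 and Gm37260 are limited by depth.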
